A study of Homo sapiens with 26 samples.

Results

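DNA replication and E2F-driven genes were followed through a study of RUNX1T1 hairpins in neuroblastoma cells and xenografts. The group held 48 of the 26485 genes in the count tables and was chosen by name: the proteins that license and fire replication origins, copy and join DNA, supply its building blocks and package the new strands, together with 3 E2F factors. All 48 passed the filter on low counts in both tables, and their rounded counts in a single library ran from 250 to 46503.

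In each cell cycle, the origin recognition complex, CDC6 and CDT1 load the ring of MCM2 to MCM7 onto DNA in G1, and the kinase CDC7 with DBF4 then switches that ring on by helping CDC45 and the GINS proteins to join it. Most of these genes are transcribed from late G1 into S phase under E2F factors, which are held back by RB family proteins until cyclin-dependent kinases release them, and E2F8 belongs to the members of the family that repress the same targets. In neuroblastoma with amplified MYCN, this set is usually strongly expressed and is read as a sign of cycling cells.

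The study asked what the loss of RUNX1T1, a transcriptional co-repressor, does to gene expression in human neuroblastoma. KELLY is an established neuroblastoma cell line with amplified MYCN, so every group carried that amplification. RNA was sequenced from 3 KELLY lines, each with a doxycycline-inducible lentiviral vector that also carries GFP: EV held the empty vector, and sh4 and shAMB each held a different short hairpin against RUNX1T1. Each line received DMSO or doxycycline for 72 h, with 3 libraries per group. Subcutaneous KELLY xenografts in female NOD SCID gamma mice gave 4 libraries from animals on control food and 4 from animals on doxycycline food. The labels name no hairpin for the xenografts. The study names its first hairpin, built on an Ambion siRNA sequence, for xenografted KELLY cells. It reports RNA sequencing for that hairpin both in culture and in animals, and for the second in culture only. A cultured line thus shares the hairpin of the xenografts. The name shAMB resembles Ambion, but the labels do not say whether shAMB is that hairpin. The labels call those 8 samples PDX and the doxycycline group KO, but the study's methods describe a cell line and an inducible hairpin, so the word KO below is a label and not a deletion, and doxycycline food itself had no empty-vector control in the animals. The xenografts were deposited in a table of their own and were compared only with each other. No source states that the 3 libraries of a group came from separate cultures, and p-values then measure only the spread between these libraries.

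RUNX1T1 mRNA itself did not pass the test in any of the 4 comparisons of doxycycline with its control, with a log2 fold change of −0.23 in the xenografts, −0.16 in EV, 0.06 in shAMB and −0.11 in sh4, so the RNA of the target does not check the labels. RUNX1T1 mRNA was higher for the response of shAMB minus that of EV (0.21, edgeR adjusted p 0.0353) and lower in sh4 than in EV with DMSO (−0.29, edgeR adjusted p 0.0144). The totals per library were 35115908 to 54736731 counts for cultured cells, and xenograft libraries held 47346057 to 62378057. The 9 adrenergic neuroblastoma markers were read in every library, at 3322 to 9253 CPM (counts scaled to library size) in sum, and their sum was higher with doxycycline in both hairpin lines and in the KO xenografts. Single markers differed: 5 rose and 2 fell in each hairpin line, and 4 rose and 0 fell in the xenografts. TH had the lowest log2 fold change in sh4 (−1.40) and the highest in shAMB (2.39), where HAND2 was lowest (−0.55). MYCN was highest in sh4 (0.68) and in the xenografts (1.46), where DBH was lowest (−0.51). Summed markers of other cells stayed low, at 0 to 0.135 CPM for 4 erythroid genes, 0.641 to 2.70 CPM for 5 leukocyte genes, 2.16 to 15.7 CPM for 5 endothelial genes and 48.5 to 131 CPM for 6 fibroblast genes. Endothelial sums were 2.47 ± 0.22 CPM with DMSO and 6.41 ± 1.33 with doxycycline in shAMB, 2.97 ± 0.254 and 5.53 ± 1.12 in sh4, and 2.46 ± 0.379 and 2.38 ± 0.227 in EV. Of the 3 endothelial genes tested, KDR fell by 2.56 in shAMB and VWF, with a log2 fold change of 3.09, was one of the 2 that rose. The fibroblast sums were 68.1 ± 14.2 CPM in the control and 100.6 ± 17.9 in the KO xenografts. The 18 culture libraries came from KELLY lines alone, so marker reads there do not count other cells. The highest fibroblast sum, 131 CPM, was that of a cultured sh4 library with doxycycline. In the xenografts the part of other cells in the results was not tested. Reads of fewer cells of a type and of less RNA per cell cannot be told apart in such bulk libraries.

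The promoters are shown first. A group chosen as E2F-driven genes can hold E2F letters more often than all genes through that choice, so the shares below only describe it. RefSeq promoter windows (GRCh38.p14, 250 bases before to 50 after the start) were matched for 41 of the 48 members, with none for MCM4, MCM5, GINS4, POLD3, RPA2, RPA3 and E2F8. The letters TTTGGCGC, TTTCCCGC, TTTCGCGC or TTTGCCGC, on either strand and with overlaps between them allowed, stood in the windows of 22 of the 41 members (53.7%) and in 824 of the 16199 genes with such a window (5.09%). The letters CCAAT stood in 23 of the members (56.1%) and 41.8% of all genes, CACGTG in 6 (14.6%) and 10.5%, and TTTGAA in 2 (4.88%) and 16% of all genes. A match describes letters in a window and is not a bound site, and its absence says nothing about the factor. Stretches of 44 bases around such letters are printed, with the E2F letters in capitals, for 10 members whose values are described further on, chosen to cover the licensing factors, the kinase, the GINS complex, the polymerases, the clamp, the chromatin genes and the E2F factors themselves.

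GMNN, chr6:24775315-24775358, plus strand: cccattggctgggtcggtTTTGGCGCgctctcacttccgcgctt
MCM3, chr6:52284891-52284934, minus strand: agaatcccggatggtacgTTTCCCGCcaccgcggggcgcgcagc
MCM6, chr2:135876504-135876547, minus strand: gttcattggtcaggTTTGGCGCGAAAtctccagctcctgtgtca
CDC7, chr1:91501060-91501103, plus strand: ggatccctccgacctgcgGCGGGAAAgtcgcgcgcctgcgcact
GINS2, chr16:85688960-85689003, minus strand: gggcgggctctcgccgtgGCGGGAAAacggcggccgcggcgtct
POLA1, chrX:24693763-24693806, plus strand: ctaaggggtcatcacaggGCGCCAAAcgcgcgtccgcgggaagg
PCNA, chr20:5126656-5126699, minus strand: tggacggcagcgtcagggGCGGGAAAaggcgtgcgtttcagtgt
UHRF1, chr19:4909966-4910009, plus strand: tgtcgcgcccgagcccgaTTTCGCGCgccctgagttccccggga
E2F1, chr20:33686393-33686436, minus strand: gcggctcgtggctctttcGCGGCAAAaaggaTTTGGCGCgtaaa
E2F2, chr1:23531250-23531293, minus strand: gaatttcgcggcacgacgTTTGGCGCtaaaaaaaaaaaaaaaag

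The windows are written in the direction of transcription and lie wholly before the start. MCM6 held overlapping letters that read on both strands, and E2F1 held a pair of E2F runs 5 bases apart, in a gene that is itself an E2F factor.

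Levels can be compared between genes only per length. On the scale of CPM per kb of the length in the count table, in EV cells with DMSO, PCNA was highest at 340.0 ± 17.3 (SD, n = 3), followed by RRM2 at 261 ± 12.6, TYMS at 239.9 ± 3.27 and MCM3 at 192 ± 10.3. At the other end stood E2F8 at 7.53 ± 0.330, GINS4 at 7.34 ± 0.137, POLD1 at 5.08 ± 1.63 and CDT1 at 4.01 ± 0.832 CPM per kb. RRM2 and TYMS differed by less than 2 SD of RRM2, as did E2F8 and GINS4. TYMS shares 47.9% of its exon bases with genes on the other strand, ENOSF1 and TYMSOS, and the strand setting of the counting is not given in the sources used here, so its reads are uncertain, as are, to a smaller extent, those of MCM7 (7.9%, AP4M1), RFC5 (5.73%, WSB2) and PRIM1 (3.99%, beside 4.2% with NACA on the same strand).

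The libraries stood apart in a way that reached the members unequally. Within a group, the spread between libraries rose with the GC content of the gene (Pearson r of GC and the within-group SD over the 48 members 0.726 in culture and 0.61 in the xenografts, a description over genes of the same libraries). POLD1 had a within-group SD of 0.477 on the log2 scale in culture, MCM5 0.367, CDT1 0.34 and TK1 0.339, while MCM4 had the smallest at 0.0217. Over the genes with a GC value, the libraries themselves leaned with GC: in shAMB the slope, in log2 units per 10 points of GC, was −0.158, −0.308 and −0.146 with DMSO and 0.0358, 0.157 and 0.241 with doxycycline, so it separated the groups, whereas in sh4 it was 0.285, 0.129 and −0.0106 with DMSO and −0.203, −0.114 and 0.25 with doxycycline, where the third doxycycline library lay with the DMSO libraries. In the xenografts the slopes were −0.256, 0.0822, 0.107 and 0.0413 in the controls and 0.265, −0.0199, 0.0474 and −0.268 in the KO group and overlapped. Counts of members are therefore given as fitted and again after smooth trends of each library with GC content and gene length were removed, and the part of these trends in any single result was not tested.

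**Figure D1:**
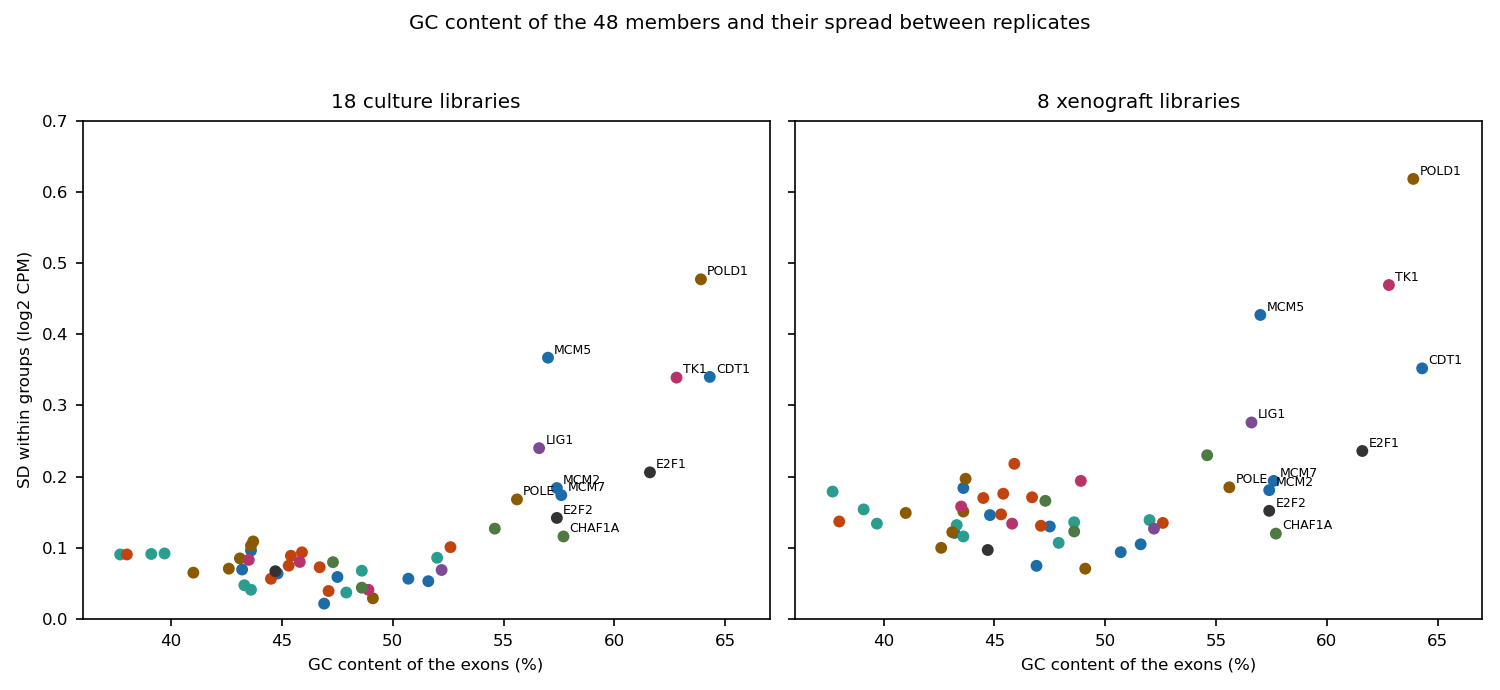
Within-group SD of the log2 CPM of each member (vertical axis, log2 units) against the GC content of its gene (horizontal axis, percent), with a point for each of the 48 members, coloured by role, in the 18 culture and the 8 xenograft libraries. The spread is larger for members of higher GC content, with POLD1 at 0.477 and MCM4 at 0.0217 in culture.

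No member passed the test with doxycycline alone. In EV cells 0 of 48 passed an adjusted p of 0.05 by edgeR, 0 did so at an unadjusted p of 0.05 and 0 with DESeq2, against 0.0939% of all 14905 genes tested, and the median log2 fold change was 0.006 beside 0.0099 over all genes. The largest fold change in EV was that of CDT1 at 0.44, edgeR adjusted p 0.672, with a 95% interval of −0.100 to 0.97. In EV the fold changes followed GC content (Pearson r 0.908 over the 48 members) and this relation was 0.273 once the trends were removed. Before induction the hairpin lines did not differ from EV at any member by edgeR: with DMSO, 0 of 48 were called in sh4, where 1.12% of all genes were, and 0 in shAMB, where 1.52% were, although 15 and 3 members had an unadjusted p under 0.05. With the trends removed, 1 member was higher and 6 were lower in sh4 with DMSO than in EV with DMSO, beside 2.7% and 3.09% of all genes. In shAMB 1 was lower, beside 2.82% of all genes, and 0 were higher, beside 3.17%. DESeq2 called 0 members in sh4 and 1 in shAMB. Over all genes it called 182 higher and 169 lower in sh4 and 212 and 82 in shAMB.

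Members passed the test in each setting with a hairpin, in unequal number. In sh4, doxycycline raised 6 members (12.5%) and lowered 11 (22.9%), where 22.9% of all genes rose and 18% fell, and the median over the members was −0.04 beside −0.0046 over all genes. In shAMB, 3 members rose (6.25%, against 37.6% of all genes) and 32 fell (66.7%, against 28.4%), and the median was −0.28 beside 0.10 over all genes. In the xenografts, 0 members rose, where 21.2% of all genes did, and 40 fell (83.3%, against 19.9%). All 48 fold changes in the xenografts were negative, and their median was −0.58 beside 0.02 over all genes. After removal of the trends the counts were 14 higher and 17 lower in sh4, 4 and 36 in shAMB and 0 and 39 in xenografts, where 29.9% and 25.7%, 39.2% and 32.9%, and 28.5% and 24.2% of all genes were higher and lower.

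**Figure D2:**
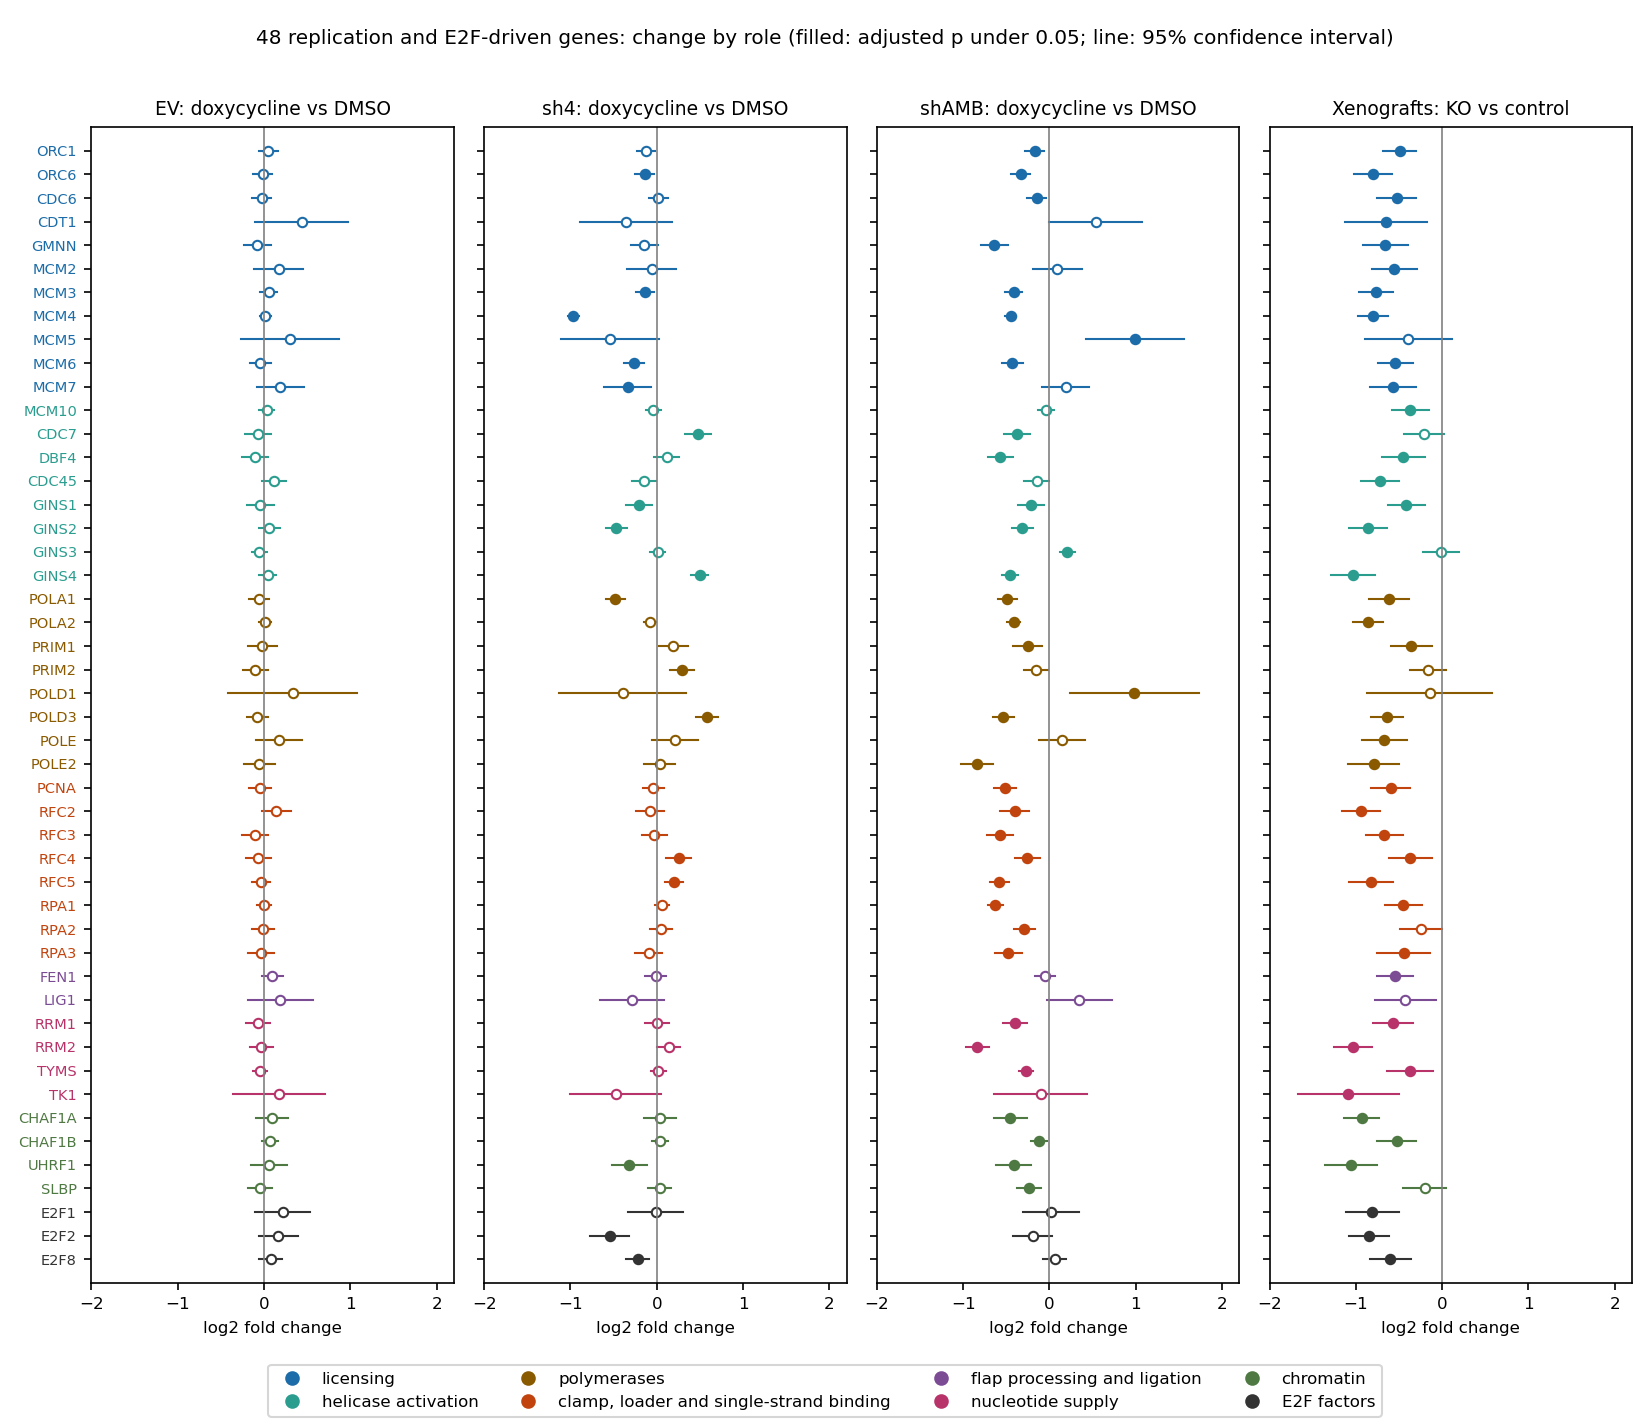
Log2 fold change (doxycycline against its control, horizontal axis) of each of the 48 members, grouped and coloured by role on the vertical axis, in EV, the hairpin lines sh4 and shAMB and the xenografts, with the 95% confidence interval as a line and filled points for members past an adjusted p of 0.05. EV stays near 0, sh4 has members on both sides, shAMB lies mostly below 0 and the xenografts lie wholly below 0, with medians of 0.006, −0.04, −0.28 and −0.58.

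The summed level of the members was lower with doxycycline in both hairpin lines and in the KO xenografts. The 48 genes together took 7695 ± 79.4 CPM in EV with DMSO and 7792 ± 43.2 with doxycycline (SD, n = 3), 7728 ± 86.2 and 7426 ± 21.8 in sh4, and 7706 ± 94.4 and 6174 ± 137 in shAMB. In the xenografts the sum was 5570 ± 314 CPM in the controls and 3617 ± 132 in the KO group (SD, n = 4). The sums are led by the most abundant members, RRM2, PCNA and the MCM genes among them.

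Some licensing factors fell in each setting with a hairpin. Numbers in parentheses after a gene's values are its log2 fold change (doxycycline over DMSO, or KO over control), the SE where it passed, and the adjusted p. Of 11 genes, 0 rose and 5 fell in sh4 (45.5%, against 18% of all genes). In shAMB 1 rose and 7 fell (9.09% and 63.6%, against 37.6% and 28.4%), and in xenografts 10 fell (90.9%, against 19.9%). CDC6, the loader of the MCM ring, lay at 208 to 221 CPM over the 6 EV libraries. In sh4 it measured 181, 196 and 197 CPM with DMSO and 203, 201 and 178 CPM with doxycycline (0.02, edgeR adjusted p 0.792). In shAMB it measured 219.7, 225 and 219 CPM with DMSO and 202, 209 and 187 CPM with doxycycline (−0.15, SE 0.0527, edgeR adjusted p 0.0222). The groups overlapped in sh4 and were apart in shAMB, where the call was lost without the second DMSO library (−0.14, edgeR adjusted p 0.0621), without the third doxycycline library (−0.10, edgeR adjusted p 0.111) and with the trends removed. In the xenografts it measured 169, 123, 142 and 151 CPM in the controls and 98.2, 95.4, 104 and 109 CPM in those labelled KO (−0.53, SE 0.102, edgeR adjusted p 0.00195), with every KO library below every control.

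CDT1, the partner of CDC6 in loading, and geminin (GMNN), the protein that blocks CDT1 after firing, are the next step. CDT1 was sparse, with 8.71 to 16.1 CPM in EV. In sh4 it measured 17.6, 13.4 and 11.6 CPM with DMSO and 8.57, 8.55 and 16.3 CPM with doxycycline (−0.35, edgeR adjusted p 0.274), where the third doxycycline library lay among the DMSO values and without it the change was −0.73 (edgeR adjusted p 0.0107). The shAMB libraries gave 9.96, 6.50 and 10.3 CPM with DMSO and 11, 13.3 and 14.5 CPM with doxycycline (0.54, edgeR adjusted p 0.0734), without overlap, and turned to −0.29, edgeR adjusted p 0.00227 with the trends removed. The xenografts gave 8.92, 13, 13.6 and 14.6 CPM in the controls and 11.2, 7.46, 7.33 and 5.90 CPM in those labelled KO (−0.65, SE 0.215, edgeR adjusted p 0.0326), the groups overlapped, and the call was lost on leaving out any 1 of 6 libraries (adjusted p 0.062 to 0.0913 by edgeR). GMNN lay at 119 to 135 CPM in EV. In sh4 it measured 108, 119 and 121 CPM with DMSO and 116, 104 and 94.8 CPM with doxycycline (−0.14, edgeR adjusted p 0.139), and 1 of the 3 doxycycline libraries lay among the DMSO values; without that first library the change was −0.22 (edgeR adjusted p 0.0273). shAMB cells held 129.7, 141 and 131 CPM with DMSO and 92.1, 87.8 and 78 CPM with doxycycline (−0.64, SE 0.0744, edgeR adjusted p 1.95e-06), a clean separation. Xenograft libraries held 85, 60.6, 75.2 and 72.1 CPM in the controls and 42, 43.1, 46.4 and 54.2 CPM in those labelled KO (−0.66, SE 0.119, edgeR adjusted p 0.00139), again without overlap.

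The MCM ring did not move as a unit. MCM2 measured 395, 349 and 309 CPM with DMSO and 284, 312 and 415 CPM with doxycycline in sh4 (−0.06, edgeR adjusted p 0.754). Its level in shAMB was 266, 228 and 278 CPM with DMSO and 244, 289.6 and 291 CPM with doxycycline (0.09, edgeR adjusted p 0.559), with overlap in both lines and 245 to 333 CPM in EV. Once the trends were removed it was 0.07, edgeR adjusted p 0.0172, in sh4 and −0.35, edgeR adjusted p 9.67e-10, in shAMB. Its level in the xenografts was 259.6, 280.5, 338 and 309 CPM in the controls and 232, 184, 217 and 174 CPM in those labelled KO (−0.56, SE 0.118, edgeR adjusted p 0.00339), without overlap. MCM5 lay at 75.2 to 135 CPM in EV and measured 180.4, 148 and 109 CPM with DMSO and 68.2, 82.3 and 151 CPM with doxycycline in sh4 (−0.54, edgeR adjusted p 0.121), where again the third doxycycline library stood apart and the change without it was −0.95 (edgeR adjusted p 0.00285). In shAMB, MCM5 was the member that rose most: it measured 86.5, 64.6 and 91.8 CPM with DMSO and 136, 166 and 181 CPM with doxycycline (0.99, SE 0.269, edgeR adjusted p 0.00435), and was still higher with the trends removed (0.59, edgeR adjusted p 0.00102). Among the xenografts it read 84.3, 132, 157 and 147 CPM in the controls and 137, 87.6, 107 and 65.5 CPM in those labelled KO (−0.39, edgeR adjusted p 0.196), with the groups overlapping; without the first control it was −0.60 (edgeR adjusted p 0.0353) and without the first KO library −0.59 (edgeR adjusted p 0.0431).

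MCM4 carried the largest fall in sh4 of any member and was singled out after its values were seen. It measured 360.1, 361 and 351 CPM with DMSO and 185, 179 and 184 CPM with doxycycline in sh4, 384, 372 and 371 CPM with DMSO and 275, 278 and 273 CPM with doxycycline in shAMB and 341 to 354 CPM in EV. All doxycycline libraries lay below all DMSO libraries in both hairpin lines, and those of sh4 lay below those of shAMB (−0.97, SE 0.0307, edgeR adjusted p 3.28e-12 in sh4; −0.45, SE 0.0304, edgeR adjusted p 4.73e-09 in shAMB). The difference was −0.52, SE 0.0431, edgeR adjusted p 8.06e-08, for sh4 minus shAMB. As a share of the summed CPM per kb of MCM2 to MCM7, which form a ring of equal parts, MCM4 took 12.9% ± 0.727 with DMSO and 8.09% ± 0.877 with doxycycline in sh4 (SD, n = 3), 15.6% ± 0.859 and 12.3% ± 0.566 in shAMB, and 13.9% ± 1.11 and 13.1% ± 0.398 in EV. In shAMB the MCM5 share was 6.30% ± 0.789 with DMSO and 13.5% ± 1.44 with doxycycline. All these shares were taken without removal of the trends, and the part of GC content in them was not tested. Of the other ring genes, MCM3 fell by 0.14 in sh4 and 0.41 in shAMB, MCM6 by 0.26 and 0.43, and MCM7 by 0.34 in sh4, with a positive value of 0.19 and no call in shAMB. With the trends removed MCM7 was −0.26, edgeR adjusted p 7.1e-07, in shAMB. MCM3 and MCM7 in sh4 were weak calls: each lost significance without any 1 of 4 libraries, at −0.11 to −0.14 for MCM3 (edgeR adjusted p 0.0557 to 0.111) and −0.23 to −0.33 for MCM7 (edgeR adjusted p 0.098 to 0.201). In the xenografts the MCM3, MCM4, MCM6 and MCM7 changes were −0.77, −0.80, −0.54 and −0.57, all past the threshold.

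ORC1 and ORC6, subunits of the origin recognition complex, completed this role. ORC1 had log2 fold changes of −0.13 in sh4, −0.17 in shAMB and −0.49 in xenografts, and ORC6 of −0.14, −0.34 and −0.80. All of these passed but that of ORC1 in sh4, which did so without the third DMSO library (−0.16, edgeR adjusted p 0.0366) or the third doxycycline library (−0.15, edgeR adjusted p 0.0405). ORC6 in sh4 was lost without any 1 of 4 libraries, at −0.11 to −0.13 (edgeR adjusted p 0.103 to 0.144).

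Among the 8 genes of helicase activation, 2 rose and 2 fell in sh4 (25% each, near the 22.9% and 18% of all genes). In shAMB 1 rose and 5 fell (12.5% and 62.5%, against 37.6% and 28.4%), and in xenografts 6 fell (75%, against 19.9%). DBF4, the activating subunit, measured 132, 139 and 145 CPM with DMSO and 164, 152 and 134 CPM with doxycycline in sh4 (0.11, edgeR adjusted p 0.207), with overlap, or 0.19 without the third doxycycline library (edgeR adjusted p 0.0212), and EV lay at 141 to 165 CPM. Under the shAMB hairpin it read 163, 172 and 160.2 CPM with DMSO and 117, 114 and 103 CPM with doxycycline (−0.57, SE 0.0703, edgeR adjusted p 3.82e-06), without overlap. For the xenografts the values were 127, 95.7, 109 and 115 CPM in the controls and 68.1, 82, 83.6 and 93.4 CPM in those labelled KO (−0.45, SE 0.115, edgeR adjusted p 0.00951), and every KO library was below every control.

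CDC7, the catalytic subunit, was chosen after its values were seen and moved in opposite directions. It measured 87.5, 97.9 and 97.7 CPM with DMSO and 141, 137 and 116 CPM with doxycycline in sh4 (0.48, SE 0.0707, edgeR adjusted p 5.37e-05), where all doxycycline libraries were higher, and 109, 115 and 104 CPM with DMSO and 87.9, 83.1 and 81.9 CPM with doxycycline in shAMB (−0.37, SE 0.0709, edgeR adjusted p 0.000264), where all were lower. In the animals it measured 80.8, 62.4, 71.2 and 70 CPM in the controls and 52.8, 63.7, 61.2 and 68 CPM in those labelled KO (−0.21, edgeR adjusted p 0.135), with overlap. GINS4, a subunit of the GINS ring that was likewise chosen after its values were seen, did the same with tighter libraries. It measured 30.9, 32 and 30 CPM with DMSO and 44.9, 42.7 and 43.7 CPM with doxycycline in sh4 (0.497, SE 0.0452, edgeR adjusted p 3.28e-07). For shAMB the values were 31.7, 30 and 31.8 CPM with DMSO and 22.2, 23 and 22.8 CPM with doxycycline (−0.46, SE 0.0458, edgeR adjusted p 3.88e-07). In the xenografts it measured 17.1, 17, 17.9 and 17.3 CPM in the controls and 9.71, 7.62, 8.11 and 8.40 CPM in those labelled KO (−1.03, SE 0.118, edgeR adjusted p 8.31e-05), and no KO value reached the controls.

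The other GINS subunits did not share that pattern. GINS2 fell in all 3 settings (−0.47, −0.31 and −0.86 in sh4, shAMB and the xenografts), GINS1 likewise (−0.200, −0.22 and −0.41), and GINS3 stood at 0.01 in sh4 with no call, rose by 0.21 in shAMB and stood at −0.01 with no call in the xenografts. The GINS1 calls in culture were weak: in sh4 the change was −0.19 without the second DMSO library, −0.18 without the third and −0.11 without the third doxycycline library (edgeR adjusted p 0.0857, 0.0901 and 0.126), and in shAMB it was −0.17 without the second DMSO library and −0.18 without the third doxycycline library (edgeR adjusted p 0.0737 and 0.0616). CDC45, the helicase cofactor, measured 120.2, 116 and 107 CPM with DMSO and 95.8, 105 and 109 CPM with doxycycline in sh4 (−0.15, edgeR adjusted p 0.0958). Libraries of shAMB showed 112, 104 and 113 CPM with DMSO and 92.9, 104 and 100.04 CPM with doxycycline (−0.15, edgeR adjusted p 0.0619). Neither passed, and EV lay at 104 to 127 CPM. It passed on leaving out 1 library in 4 cases, at −0.19 without the third DMSO or the third doxycycline library of sh4 (edgeR adjusted p 0.0474 and 0.0372), and at −0.19 without the second DMSO or the second doxycycline library of shAMB (edgeR adjusted p 0.0398 and 0.0458). The xenografts gave 82.7, 85.5, 95.4 and 102 CPM in the controls and 61.9, 49.6, 57.7 and 53.6 CPM in those labelled KO (−0.71, SE 0.0998, edgeR adjusted p 0.000284), without overlap. MCM10, a scaffold for the starting fork, passed in neither line as fitted. It lay at 209 to 219 CPM in EV. In sh4 cells it measured 194, 204 and 208 CPM with DMSO and 201, 205 and 184 CPM with doxycycline (−0.04, edgeR adjusted p 0.492). In shAMB it measured 215, 212 and 214 CPM with DMSO and 213, 213 and 198 CPM with doxycycline (−0.04, edgeR adjusted p 0.408). With the trends removed it was −0.13, edgeR adjusted p 0.000317, in sh4 and 0.07, edgeR adjusted p 0.0323, in shAMB, whereas with the shAMB libraries alone it was −0.12 there, edgeR adjusted p 0.0352. Xenograft libraries held 214, 175, 199 and 196 CPM in the controls and 134, 145, 157 and 169 CPM in those labelled KO (−0.37, SE 0.0968, edgeR adjusted p 0.0109), with the KO libraries all lower.

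**Figure D3:**
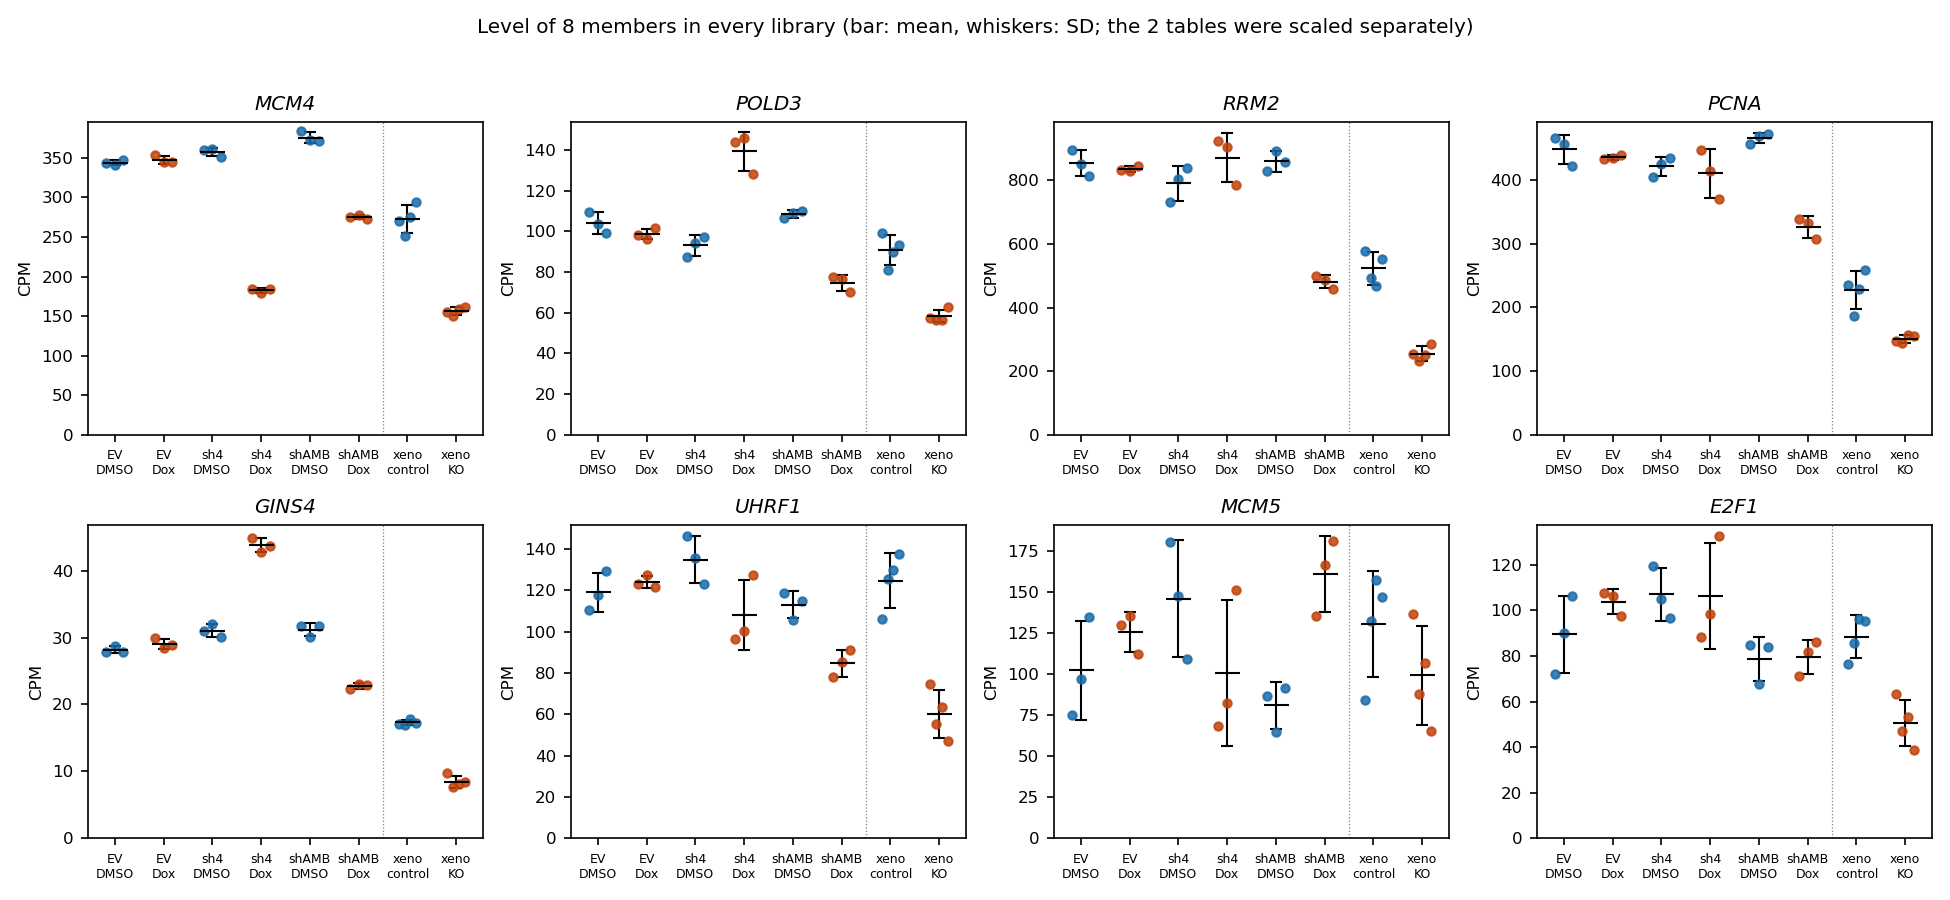
Level in CPM (vertical axis, from 0) of MCM4, POLD3, RRM2, PCNA, GINS4, UHRF1, MCM5 and E2F1 in the 8 groups, with a point for each library, a bar for the group mean and whiskers for the SD; the xenograft table was scaled separately. The shAMB doxycycline libraries and the KO xenografts lie below their controls for RRM2 and PCNA, while in sh4 the largest separation is that of MCM4, at 351 to 361 CPM with DMSO and 179 to 185 CPM with doxycycline.

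Polymerase genes were called in sh4 about as often as all genes. Of 8, 2 rose and 1 fell there (25% and 12.5%, against 22.9% and 18% of all genes). In shAMB 1 rose and 5 fell (12.5% and 62.5%, against 37.6% and 28.4%), and in xenografts 6 fell (75%, against 19.9%). POLD1, the catalytic subunit of polymerase delta, was the noisiest member. It lay at 11.6 to 24.1 CPM in EV and measured 40, 28.5 and 19.7 CPM with DMSO and 13.2, 16.5 and 37.7 CPM with doxycycline in sh4 (−0.39, edgeR adjusted p 0.382); without the third doxycycline library of sh4 it was −0.98 (edgeR adjusted p 0.0107). The shAMB libraries gave 15.9, 11.3 and 15.4 CPM with DMSO and 22, 26.8 and 35.5 CPM with doxycycline (0.98, SE 0.353, edgeR adjusted p 0.0225), and no values overlapped, but it was 0.84 without the second DMSO library (edgeR adjusted p 0.0873), 0.78 without the third doxycycline library (edgeR adjusted p 0.0962) and 0.15, edgeR adjusted p 0.297 with the trends removed. Its level in the xenografts was 12.6, 25.8, 30.7 and 27 CPM in the controls and 36, 17.4, 21.5 and 12.1 CPM in those labelled KO (−0.14, edgeR adjusted p 0.757), with both the highest and the lowest value in the KO group.

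POLD3, an accessory subunit of the same polymerase, was far tighter and moved the other way. It measured 87.5, 94.5 and 97.3 CPM with DMSO and 144, 146 and 128 CPM with doxycycline in sh4 (0.58, SE 0.0574, edgeR adjusted p 8.03e-07). shAMB cells held 106, 109 and 109.9 CPM with DMSO and 77.5, 76.7 and 70.3 CPM with doxycycline (−0.54, SE 0.0577, edgeR adjusted p 8.38e-07). EV lay at 96.4 to 109.8 CPM. It was thus the member that rose most in sh4, while all shAMB doxycycline libraries were below their controls. Among the xenografts it read 99.2, 81.2, 89.7 and 93.5 CPM in the controls and 57.3, 56.4, 56.7 and 62.8 CPM in those labelled KO (−0.64, SE 0.0857, edgeR adjusted p 0.00022), without overlap.

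POLE, the catalytic subunit of polymerase epsilon, which copies the leading strand, passed only in the xenografts as fitted. It measured 208, 171 and 165 CPM with DMSO and 180.2, 199.98 and 250.2 CPM with doxycycline in sh4 (0.21, edgeR adjusted p 0.185). Its level in shAMB was 142, 119.7 and 143 CPM with DMSO and 137, 139 and 170.2 CPM with doxycycline (0.14, edgeR adjusted p 0.328), with overlap in both, and 142 to 184 CPM in EV. After removal of the trends it was 0.23, edgeR adjusted p 5.17e-06, in sh4 and −0.39, edgeR adjusted p 5.26e-09, in shAMB. For the xenografts the values were 151, 198, 180.4 and 171 CPM in the controls and 129.6, 115, 102 and 93.4 CPM in those labelled KO (−0.67, SE 0.118, edgeR adjusted p 0.0012), without overlap. POLE2, its second subunit, had the deepest fall of any member in shAMB. It measured 45, 48.9 and 48.6 CPM with DMSO and 27.1, 27.6 and 25 CPM with doxycycline (−0.84, SE 0.0856, edgeR adjusted p 4.72e-07), beside 37, 42.9 and 44.9 CPM with DMSO and 46.5, 42.1 and 39.3 CPM with doxycycline in sh4 (0.04, edgeR adjusted p 0.758) and 41.9 to 50.8 CPM in EV. Groups were apart in shAMB and overlapped in sh4. In the animals it measured 37.9, 26.4, 31.4 and 32.4 CPM in the controls and 15.6, 18.5, 18.7 and 21.1 CPM in those labelled KO (−0.79, SE 0.133, edgeR adjusted p 0.000849), and every KO library was lower.

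Primase and polymerase alpha, which lay down the first stretch of each new strand, gave −0.48, −0.49 and −0.62 for POLA1 in sh4, shAMB and the xenografts, all 3 past the threshold, so that POLA1 was 1 of the few members to fall alike in both lines. POLA2 stood at −0.08 with no call in sh4 and fell by 0.41 in shAMB and 0.85 in the xenografts. PRIM1 stood at 0.19 in sh4 with no call, −0.25 in shAMB and −0.36 in xenografts, and its shAMB call was lost without the third doxycycline library (−0.20, edgeR adjusted p 0.0554). In sh4 PRIM1 passed without the third DMSO library (0.24, edgeR adjusted p 0.0359) or the third doxycycline library (0.26, edgeR adjusted p 0.012), and in the xenografts the call was lost without the fourth control (−0.32, edgeR adjusted p 0.0673) or the second KO library (−0.36, edgeR adjusted p 0.0546). PRIM2 rose by 0.29 in sh4 and had −0.16 in shAMB and −0.17 in xenografts, with no call in either.

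The sliding clamp, its loader and the single-strand binding proteins moved together in shAMB. Of 8 genes, 2 rose and 0 fell in sh4 (25% and 0%, against 22.9% and 18% of all genes). All 8 fell in shAMB (100%, against 28.4%) and 7 fell in xenografts (87.5%, against 19.9%). Their summed level was 1603 ± 20.9 CPM with DMSO and 1144 ± 65.4 with doxycycline in shAMB (SD, n = 3) and 895.8 ± 92.8 and 607.8 ± 39 in the xenografts (SD, n = 4). PCNA, the clamp itself, measured 404, 426 and 434 CPM with DMSO and 447, 415 and 369.9 CPM with doxycycline in sh4 (−0.04, edgeR adjusted p 0.638), with overlap, and 423 to 466 CPM in EV. Under the shAMB hairpin it read 457, 469.7 and 473 CPM with DMSO and 339.6, 333 and 307 CPM with doxycycline (−0.51, SE 0.0600, edgeR adjusted p 2.03e-06), with a gap between the groups. In the xenografts it measured 235, 186, 229 and 259 CPM in the controls and 147, 144, 156 and 155 CPM in those labelled KO (−0.60, SE 0.103, edgeR adjusted p 0.00101), and the KO libraries were all lower and close together.

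RPA1, the large subunit of the protein that coats single-stranded DNA, was steady outside shAMB in culture. It measured 267, 285 and 279 CPM with DMSO and 292, 293 and 283 CPM with doxycycline in sh4 (0.06, edgeR adjusted p 0.221) and 272 to 278 CPM in EV. For shAMB the values were 289.6, 282 and 292 CPM with DMSO and 189, 194 and 176 CPM with doxycycline (−0.63, SE 0.0386, edgeR adjusted p 1.52e-09), where the highest doxycycline value was far under the lowest DMSO value. The xenografts gave 163, 142, 148 and 157 CPM in the controls and 97.3, 106, 117 and 126 CPM in those labelled KO (−0.45, SE 0.0957, edgeR adjusted p 0.00345), without overlap. RPA2 and RPA3 fell by 0.29 and 0.48 in shAMB and stood at −0.25 (no call) and −0.44 in the xenografts, where RPA2 passed without the second control (−0.35, edgeR adjusted p 0.0128).

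RFC4, a subunit of the clamp loader, moved in opposite directions in the hairpin lines. It measured 167, 178 and 185 CPM with DMSO and 226, 219 and 187 CPM with doxycycline in sh4 (0.25, SE 0.0686, edgeR adjusted p 0.00762), where every doxycycline library was higher, and 199, 209 and 194 CPM with DMSO and 176, 174 and 155 CPM with doxycycline in shAMB (−0.26, SE 0.0687, edgeR adjusted p 0.00413), where every one was lower, with EV at 180.4 to 201 CPM. Its rise in sh4 was 0.20 without the first DMSO library (edgeR adjusted p 0.0728), and its fall in shAMB was −0.02, edgeR adjusted p 0.701, with the trends removed. Xenograft libraries held 132, 91.4, 117 and 110.3 CPM in the controls and 77.8, 86.4, 90 and 94.4 CPM in those labelled KO (−0.37, SE 0.113, edgeR adjusted p 0.0235), with overlap, and the call was lost without the third control (−0.36, edgeR adjusted p 0.0564) or the second KO library (−0.37, edgeR adjusted p 0.0612). The same 2 libraries decided RPA3 in the xenografts (−0.42 and −0.38, edgeR adjusted p 0.0637 and 0.0831). RFC5 rose by 0.20 in sh4, or 0.16 without the first DMSO library (edgeR adjusted p 0.0583), and fell by 0.58 in shAMB and 0.83 in the xenografts. RFC2 and RFC3 had no call in sh4 (−0.08 and −0.03) and fell by 0.40 and 0.58 in shAMB and by 0.94 and 0.67 in the xenografts.

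Flap processing and ligation, the joining of lagging-strand pieces, showed little in culture. FEN1, the flap nuclease, measured 213, 216 and 204 CPM with DMSO and 196, 203 and 227 CPM with doxycycline in sh4 (−0.01, edgeR adjusted p 0.86). Libraries of shAMB showed 199.7, 184 and 198 CPM with DMSO and 180.3, 198 and 184 CPM with doxycycline (−0.05, edgeR adjusted p 0.45). EV lay at 187 to 210.3 CPM, and the groups overlapped in both lines. Its level in the xenografts was 139.8, 131, 156 and 159.9 CPM in the controls and 111, 92.8, 103 and 95.3 CPM in those labelled KO (−0.54, SE 0.0943, edgeR adjusted p 0.00106), without overlap. LIG1, the ligase, lay at 61.5 to 88.3 CPM in EV and measured 114, 96.2 and 83 CPM with DMSO and 61.4, 72.5 and 106 CPM with doxycycline in sh4 (−0.29, edgeR adjusted p 0.2), where the third doxycycline library lay with the DMSO values and the change without it was −0.55 (edgeR adjusted p 0.00647). In shAMB it measured 66.5, 55.4 and 69.9 CPM with DMSO and 73.3, 82.2 and 88.3 CPM with doxycycline (0.35, edgeR adjusted p 0.0951), without overlap but short of the threshold. Among the xenografts it read 55.7, 73.5, 79.2 and 81.5 CPM in the controls and 68.9, 49.9, 54.8 and 41.9 CPM in those labelled KO (−0.43, edgeR adjusted p 0.0518); the groups overlapped, and it passed without the first control (−0.58, edgeR adjusted p 0.00921) or the first KO library (−0.57, edgeR adjusted p 0.00764).

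Nucleotide supply fell in shAMB and in the xenografts. Of its 4 genes none passed in sh4 as fitted, where 22.9% of all genes rose and 18% fell. In shAMB 3 fell (75%, against 28.4%) and in xenografts 4 fell (100%, against 19.9%). The summed level was 1494 ± 36.2 CPM with DMSO and 992.2 ± 41.3 with doxycycline in shAMB (SD, n = 3) and 807.8 ± 63.2 and 454.4 ± 34.9 CPM in the xenografts (SD, n = 4). RRM2, the small subunit of ribonucleotide reductase and the most abundant member by count, measured 828, 892 and 858 CPM with DMSO and 498, 486 and 459.7 CPM with doxycycline in shAMB (−0.84, SE 0.0639, edgeR adjusted p 1.78e-08). In sh4 it measured 731, 804 and 838 CPM with DMSO and 924, 905 and 784 CPM with doxycycline (0.14, edgeR adjusted p 0.0921), and EV lay at 814 to 897 CPM. The shAMB groups were far apart, while in sh4 the third doxycycline library lay among the DMSO values; RRM2 passed there as a rise without that library (0.21, edgeR adjusted p 0.00713) or without the third DMSO library (0.18, edgeR adjusted p 0.0493). For the xenografts the values were 577, 493, 466 and 554 CPM in the controls and 253, 232, 250.4 and 286 CPM in those labelled KO (−1.03, SE 0.102, edgeR adjusted p 4.01e-05), with no overlap. After removal of the trends, sh4 gave 0.09, edgeR adjusted p 0.0463, for RRM2, 0.08, edgeR adjusted p 0.0372, for TYMS and −0.14, edgeR adjusted p 0.0236, for TK1. RRM1, the large subunit, stood at 0.01 in sh4 and fell by 0.40 in shAMB and 0.57 in the xenografts.

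TYMS, which makes thymidylate, measured 359.6, 366 and 369 CPM with DMSO and 385, 374 and 351 CPM with doxycycline in sh4 (0.02, edgeR adjusted p 0.71). The shAMB libraries gave 379, 385 and 389 CPM with DMSO and 320.01, 331 and 303 CPM with doxycycline (−0.27, SE 0.0395, edgeR adjusted p 1.99e-05). EV lay at 365 to 384 CPM. The groups overlapped in sh4 and were apart in shAMB. In EV too every doxycycline library lay below every DMSO library, with no call (−0.05, edgeR adjusted p 0.672). In the animals it measured 107, 128, 92 and 116 CPM in the controls and 76.1, 79.9, 84 and 102 CPM in those labelled KO (−0.37, SE 0.122, edgeR adjusted p 0.0314); the groups overlapped, and the call was lost without the second or the fourth control (−0.30 and −0.35) or without the first, the second or the third KO library (−0.32, −0.34 and −0.38; edgeR adjusted p 0.059 to 0.0902 over these 5 fits). TK1, thymidine kinase of the salvage route, lay at 18.4 to 29.3 CPM in EV. It measured 40.1, 32.7 and 24.9 CPM with DMSO and 17, 18.2 and 35.4 CPM with doxycycline in sh4 (−0.47, edgeR adjusted p 0.141), or −0.89 without the third doxycycline library (edgeR adjusted p 0.00176), and 20.2, 16 and 21.6 CPM with DMSO and 14.9, 18.6 and 20.4 CPM with doxycycline in shAMB (−0.101, edgeR adjusted p 0.738), or −0.76, edgeR adjusted p 5.25e-10 with the trends removed. In the xenografts it measured 14.6, 21.4, 26 and 25 CPM in the controls and 16, 8.04, 10.2 and 6.65 CPM in those labelled KO (−1.09, SE 0.267, edgeR adjusted p 0.00767), the largest fall of any member there, although the first KO library lay above the lowest control.

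The chromatin genes all fell in shAMB (4 of 4, against 28.4% of all genes). In sh4 1 fell (25%, against 18%) and in the xenografts 3 fell (75%, against 19.9%). CHAF1A, the large subunit of the histone chaperone CAF-1, measured 115, 109 and 98.8 CPM with DMSO and 99.4, 104 and 128 CPM with doxycycline in sh4 (0.04, edgeR adjusted p 0.75) and 94.8 to 111 CPM in EV. With the trends removed it passed in sh4 as a rise, at 0.19, edgeR adjusted p 0.00513. shAMB cells held 95.2, 84.6 and 94.2 CPM with DMSO and 62.5, 66.9 and 71 CPM with doxycycline (−0.45, SE 0.0885, edgeR adjusted p 0.000347). The xenograft values were 75, 83.3, 84.2 and 86.8 CPM in the controls and 47.9, 40.7, 45.2 and 38.5 CPM in those labelled KO (−0.93, SE 0.0937, edgeR adjusted p 4.22e-05). The groups overlapped in sh4 and in EV and were apart in shAMB and in the xenografts. CHAF1B, its partner, measured 59.5, 60 and 57.9 CPM with DMSO and 60.3, 58.1 and 63.6 CPM with doxycycline in sh4 (0.04, edgeR adjusted p 0.539). Its level in shAMB was 58.2, 54.6 and 58 CPM with DMSO and 52.5, 53.9 and 50.9 CPM with doxycycline (−0.12, SE 0.0440, edgeR adjusted p 0.0259). EV lay at 56.2 to 62.2 CPM. Its fall in shAMB was the smallest of those that passed and was lost without the first or the third DMSO library or the third doxycycline library (−0.11, −0.11 and −0.10, edgeR adjusted p 0.0786, 0.073 and 0.0911) and with the trends removed. The xenografts gave 37.8, 33.8, 36.7 and 44.3 CPM in the controls and 26.6, 25.8, 28 and 25.6 CPM in those labelled KO (−0.53, SE 0.102, edgeR adjusted p 0.00196), without overlap.

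UHRF1, which couples DNA methylation to replication, fell in all 3 settings. It measured 146, 136 and 123 CPM with DMSO and 96.7, 100.2 and 127 CPM with doxycycline in sh4 (−0.32, SE 0.0955, edgeR adjusted p 0.0137), where the third doxycycline library overlapped the controls and the call was lost without the first or second doxycycline library (−0.25 and −0.27, edgeR adjusted p 0.0709 and 0.0674). Under the shAMB hairpin it read 119, 106 and 115 CPM with DMSO and 78, 85.5 and 91 CPM with doxycycline (−0.42, SE 0.0960, edgeR adjusted p 0.00134), without overlap, and EV lay at 110.3 to 129 CPM. Xenograft libraries held 106, 125, 129.9 and 138 CPM in the controls and 74.5, 55.2, 63.3 and 47.1 CPM in those labelled KO (−1.05, SE 0.139, edgeR adjusted p 0.000197), where all KO values were lower. SLBP, the binder of replication-dependent histone mRNA, measured 58.5, 63.8 and 62.5 CPM with DMSO and 68.1, 64.1 and 56.8 CPM with doxycycline in sh4 (0.03, edgeR adjusted p 0.71). For shAMB the values were 68.6, 72.7 and 67.9 CPM with DMSO and 62.7, 58.4 and 56.7 CPM with doxycycline (−0.23, SE 0.0645, edgeR adjusted p 0.0048). EV lay at 64.7 to 71.9 CPM. The shAMB groups were apart and the sh4 groups were not. Its level in the xenografts was 48, 36.3, 42.6 and 46.2 CPM in the controls and 33.5, 35.7, 38.3 and 43 CPM in those labelled KO (−0.202, edgeR adjusted p 0.183), with overlap.

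Of the 3 E2F factors, 2 fell in sh4 (66.7%, against 18% of all genes). None passed in shAMB, where 37.6% of all genes rose and 28.4% fell, and all 3 fell in xenografts (100%, against 19.9%). E2F1, an activator of the S phase program, measured 119.6, 105 and 96.5 CPM with DMSO and 88.2, 98.4 and 133 CPM with doxycycline in sh4 (−0.01, edgeR adjusted p 0.965). Libraries of shAMB showed 84.7, 67.5 and 84 CPM with DMSO and 71.2, 81.7 and 85.9 CPM with doxycycline (0.02, edgeR adjusted p 0.93). EV lay at 72.3 to 107 CPM, and the groups overlapped in both lines. Once the trends were removed it was 0.26, edgeR adjusted p 0.00156, in sh4 and −0.67, edgeR adjusted p 2.69e-08, in shAMB. Among the xenografts it read 76.3, 85.9, 96.2 and 95.5 CPM in the controls and 63.1, 47, 53.1 and 38.9 CPM in those labelled KO (−0.81, SE 0.141, edgeR adjusted p 0.00112), without overlap. E2F2, a second activator, measured 85.8, 80.3 and 73.7 CPM with DMSO and 46.8, 53.6 and 63.7 CPM with doxycycline in sh4 (−0.55, SE 0.106, edgeR adjusted p 0.000642). In shAMB it measured 66.2, 60.3 and 69.9 CPM with DMSO and 53, 58.9 and 59.5 CPM with doxycycline (−0.196, edgeR adjusted p 0.116). EV lay at 63.5 to 84.3 CPM, and within each hairpin line the doxycycline libraries were all lower. With the trends removed it passed in shAMB too, at −0.72, edgeR adjusted p 1.03e-10. For the xenografts the values were 66.8, 83.6, 79.2 and 83.8 CPM in the controls and 46, 45.5, 45.5 and 37.2 CPM in those labelled KO (−0.85, SE 0.105, edgeR adjusted p 0.000134), without overlap. E2F8, the repressor, had log2 fold changes of −0.22 in sh4, 0.06 in shAMB with no call and −0.60 in xenografts.

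The hairpin lines differed from EV by interaction terms fitted across all genes. For sh4 minus EV, 6 members had a higher response (17.8% of all genes did) and 10 a lower one (14.7% did), with a median of −0.07 beside −0.02 over all genes. For shAMB minus EV, 1 was higher (23.7% of all genes were) and 28 were lower (21.7% were), with a median of −0.29 beside 0.08. Both differences use the same EV libraries. The largest were those of MCM4 in sh4 (−0.98, SE 0.0431, edgeR adjusted p 4.12e-10) and RRM2 in shAMB (−0.80, SE 0.0899, edgeR adjusted p 3.08e-06). The sh4 count moved with single libraries. It was 10 without the first EV DMSO library, the first sh4 DMSO library or the first or second sh4 doxycycline library. It was 26 without the third sh4 doxycycline library. Calls over all genes moved as well. They were 2659 higher and 2197 lower with all libraries, and 1970 to 2193 and 1658 to 1783 in the fits that gave 10. Without the third sh4 doxycycline library they were 3565 and 3992.

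The hairpins also differed from each other. For the response of sh4 minus that of shAMB, 25 members were higher (27.8% of all genes were) and 8 were lower (33.1% were), with a median of 0.18 beside −0.09 over all genes. All 8 clamp, loader and single-strand binding genes were among the higher ones, as were 5 of 8 polymerase genes and 3 of 4 genes each of nucleotide supply and chromatin. The largest differences were those of POLD3 (1.12, SE 0.0814, edgeR adjusted p 1.99e-08), RRM2 (0.98, SE 0.0900, edgeR adjusted p 2.68e-07) and GINS4 (0.95, SE 0.0644, edgeR adjusted p 8.78e-09) on the higher side. On the lower side stood MCM5 (−1.53, SE 0.379, edgeR adjusted p 0.00279), POLD1 (−1.38, SE 0.494, edgeR adjusted p 0.0247) and CDT1 (−0.89, SE 0.356, edgeR adjusted p 0.0406), which are also the 3 members of widest spread; with the trends removed these were −1.003, −0.30 and 0.24. After removal of the trends 30 members were higher and 8 were lower, beside 31.9% and 33.9% of all genes.

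Comparisons that share no libraries were set side by side. Between shAMB and the xenografts, 29 members fell in both, 0 rose in both, 0 moved in opposite directions and 38 of 48 had the same sign (Pearson r of the log2 fold changes 0.397, Spearman rho 0.368 over the 48 genes). Over the 14670 genes tested in both, 2448 fell in both, 2525 rose in both and 98 moved in opposite directions and 11149 had the same sign, with an r of 0.743. The 29 shared members were 90.6% of the 32 that fell in shAMB and 72.5% of the 40 that fell in the xenografts. By the study, the xenografts share the hairpin of a cultured line, which by its name may be shAMB, although the labels do not state it. The 29 shared falls can therefore not be taken as agreement between different hairpins. Between sh4 and shAMB, 8 members fell in both, 0 rose in both and 5 rose in sh4 and fell in shAMB (CDC7, GINS4, POLD3, RFC4 and RFC5), with the same sign for 22 of 48 and an r of −0.335. Over the 14905 genes tested in both, 1060 fell in both, 1304 rose in both, 1840 moved in opposite directions and 7151 had the same sign, with an r of 0.0823. The 8 were 72.7% of the 11 that fell in sh4 and 25% of the 32 in shAMB. Between sh4 and the xenografts, 11 fell in both (100% of those in sh4 and 27.5% of those in the xenografts), 4 moved in opposite directions and 28 had the same sign, with an r of 0.189. Over all 14670 genes, 944 fell in both, 1037 rose in both, 983 moved in opposite directions and 8342 had the same sign, with an r of 0.219. Genes of a library share its depth and base composition and are not independent replicates, so these values describe the lists.

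**Figure D4:**
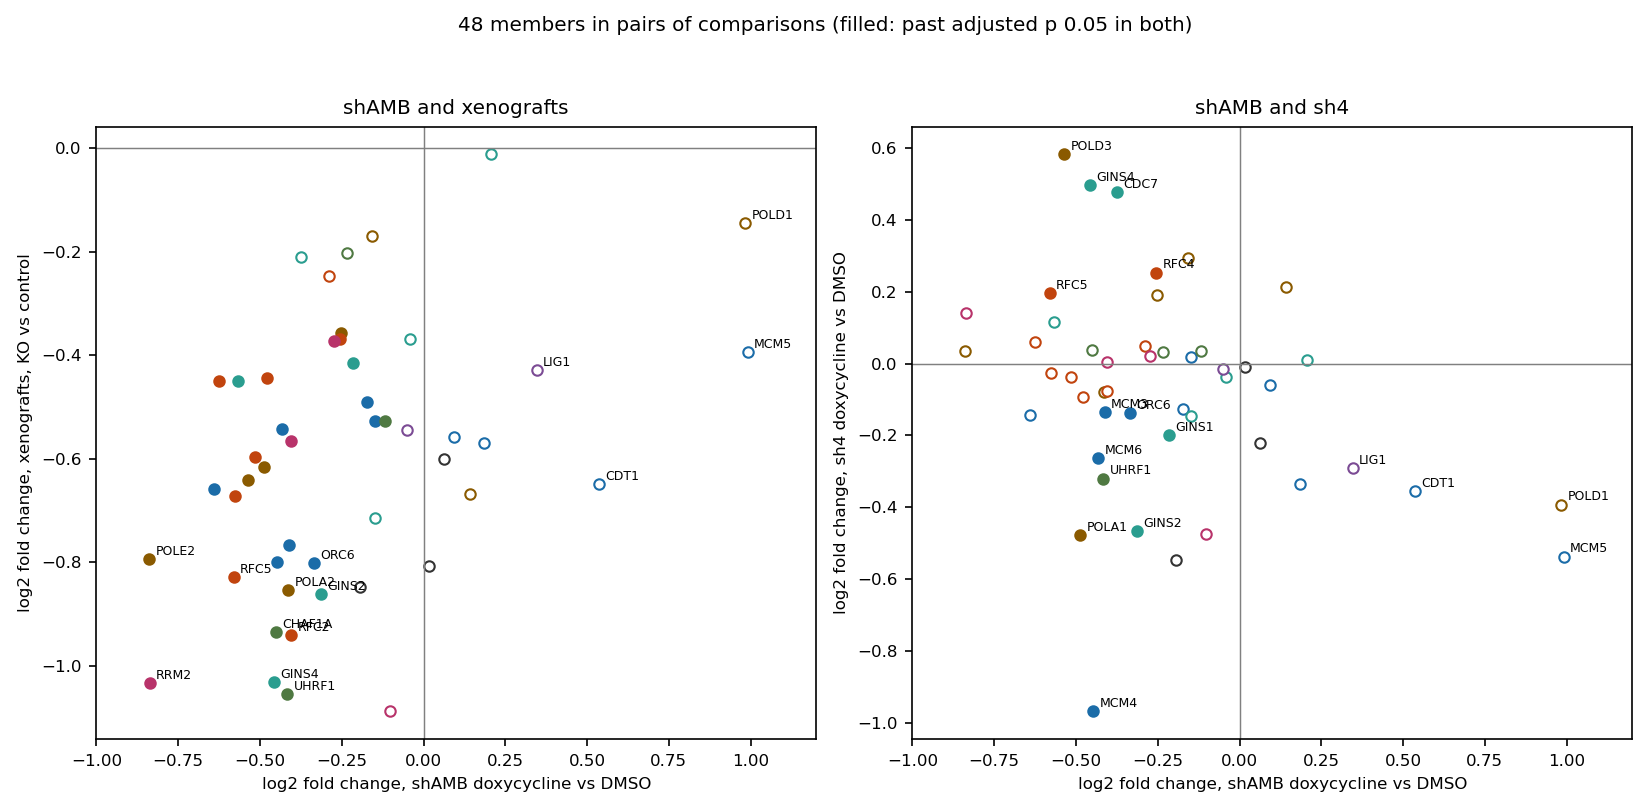
Log2 fold changes of the 48 members in pairs of comparisons that share no libraries (shAMB on the horizontal axis against the xenografts and against sh4), with a point for each member, coloured by role and filled where it passed an adjusted p of 0.05 in both. With the xenografts 29 members lie below 0 on both axes as filled points, and with sh4 the 5 that moved in opposite directions lie to the left of 0 and above it.

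The removal takes out trends with GC content, and the slopes separated the shAMB groups. A shift that differs with GC content thus follows from the removal, and the split below only describes it. Of all genes, 37.6% rose and 28.4% fell in shAMB as fitted, and 39.2% and 32.9% after removal. In sh4 these shares were 22.9% and 18%, then 29.9% and 25.7%. In the xenografts they were 21.2% and 19.9%, then 28.5% and 24.2%. Shares among all genes over 55% GC were not taken. Of the 11 members over 55% GC, 1 fell and 2 rose in shAMB as fitted (median 0.14), and 8 fell and 1 rose with the trends removed (median −0.35). Of the other 37, 31 fell and 1 rose (median −0.40) as fitted, and 28 fell and 3 rose (median −0.25) after removal. In sh4 the 11 gave 2 falls and 0 rises as fitted and 5 falls and 4 rises after removal, and in the xenografts 8 falls and 10 falls, with medians of −0.65 and −0.76. The members past the threshold in shAMB that did not pass after removal were CDC6, GINS1, PRIM1, POLD1, RFC4 and CHAF1B. Those that passed only after removal were CDT1, MCM2, MCM7, CDC45, POLE, FEN1, TK1, E2F1 and E2F2 as falls, and MCM10 and E2F8 as rises. In sh4 ORC6 no longer passed. There, 15 members passed only after removal: ORC1, MCM5, MCM10, POLA2, RFC3, LIG1 and TK1 as falls, and MCM2, PRIM1, POLE, RPA2, RRM2, TYMS, CHAF1A and E2F1 as rises. In the xenografts PRIM1, RFC4, RPA3 and TYMS no longer passed, and MCM5, CDC7 and LIG1 did.

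**Figure D5:**
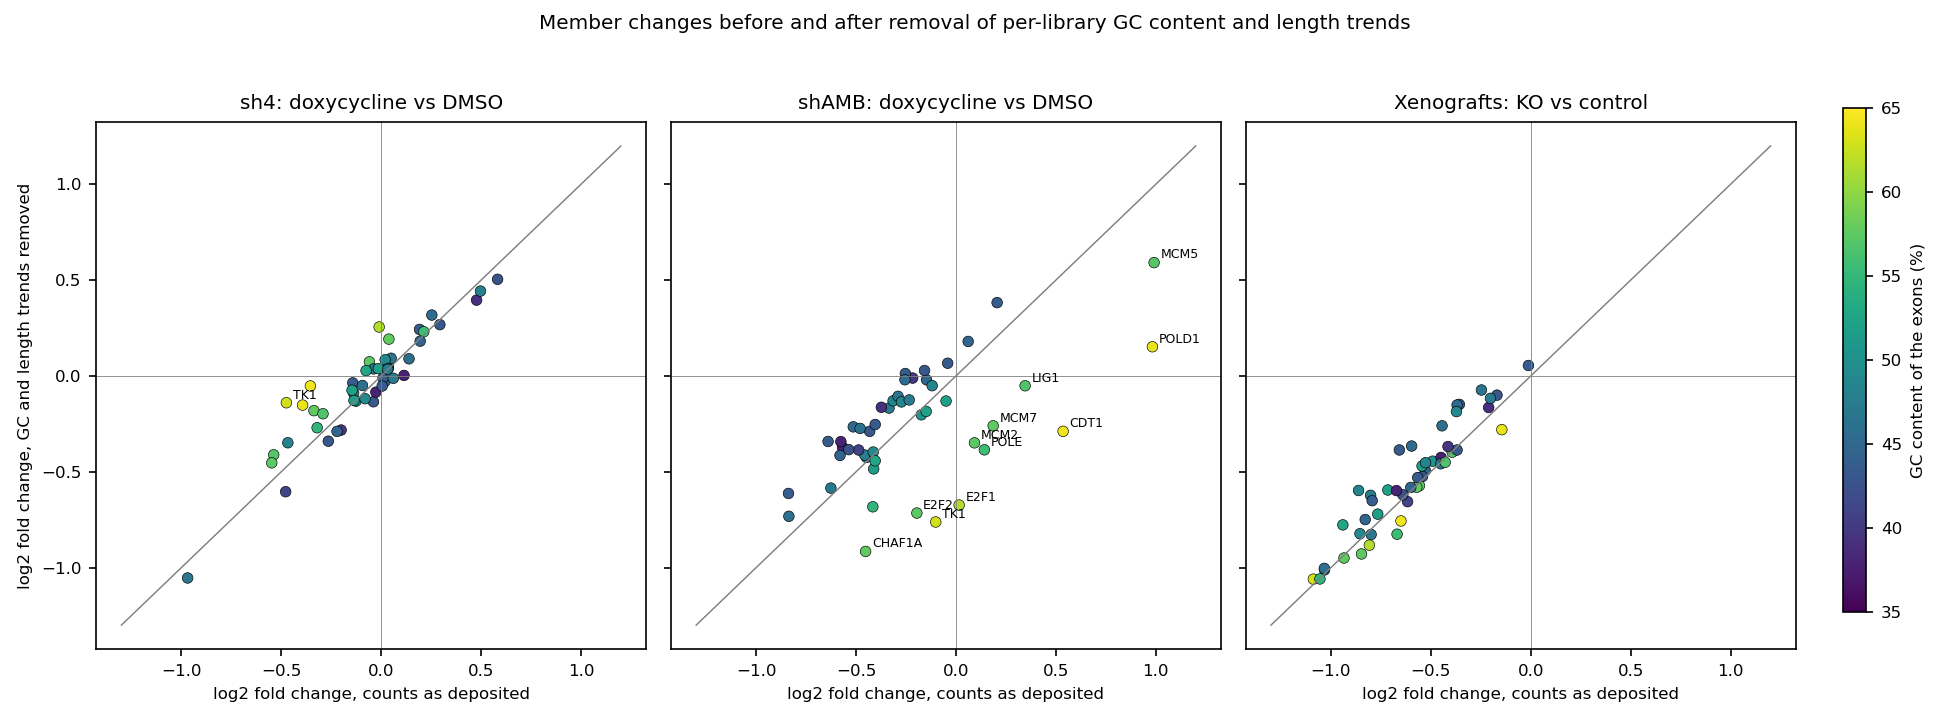
Log2 fold change of each member as fitted (horizontal axis) against the same after removal of each library's trends with GC content and length (vertical axis), in sh4, shAMB and the xenografts. Points are coloured by GC content and the line marks equal values; in shAMB the members that moved most, such as POLD1 and CDT1, lie below it.

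The members were also read against the promoter letters shown above. Of the 22 with E2F letters, 8 fell and 1 rose in sh4 (median −0.11), 14 fell and 1 rose in shAMB (median −0.29), and 19 fell in the xenografts (median −0.63). Of the 19 without them, 1 fell and 3 rose in sh4 (median 0.03), 13 fell and 1 rose in shAMB (median −0.25), and 16 fell in the xenografts (median −0.53). For CCAAT, all 23 holders fell in the xenografts (median −0.66) and 12 of the other 18 did (median −0.49). Of all genes, 22.9% rose and 18% fell in sh4, 37.6% and 28.4% in shAMB, and 21.2% and 19.9% in xenografts. Shares among all genes that hold the same letters were not taken. The 7 members without a window, MCM4 among them, stand in neither part, and these splits were not tested.

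Related genes outside the group, from lists compiled for the same pathways, are given as counts, with values for those whose response differed most between the lines; TIPIN and RBL1 stand in a pair of lists each. Over all genes, 22.9% rose and 18% fell in sh4, 37.6% and 28.4% did in shAMB, and 21.2% and 19.9% in xenografts. Of 28 other replication genes, 7 rose and 3 fell in sh4 (25% and 10.7%), 4 rose and 18 fell in shAMB (14.3% and 64.3%), and 3 rose and 15 fell in xenografts (10.7% and 53.6%), with medians of 0.04, −0.19 and −0.34. For sh4 minus shAMB, the difference was −2.27, edgeR adjusted p 2.64e-05, for POLD4, the smallest subunit of polymerase delta, −2.19, edgeR adjusted p 0.0193, for CHTF18, a clamp loader subunit, and −1.66, edgeR adjusted p 0.0179, for the helicase RECQL4. Of 23 other S phase genes regulated by E2F, 7 rose and 9 fell in sh4 (30.4% and 39.1%), 2 rose and 16 fell in shAMB (8.70% and 69.6%), and 18 fell in xenografts (78.3%). CCNE1, a cyclin E that drives entry into S phase, changed by 1.202, edgeR adjusted p 3.33e-11, in sh4, −0.22, edgeR adjusted p 0.000767, in shAMB and −0.28, edgeR adjusted p 0.0489, in xenografts. HELLS, a chromatin remodeller, changed by 0.51, edgeR adjusted p 2.99e-05, in sh4, −0.82, edgeR adjusted p 8.69e-08, in shAMB and −1.02, edgeR adjusted p 6.72e-05, in xenografts. CCNE2, the other cyclin E, differed by 0.76, edgeR adjusted p 4.71e-05, for sh4 minus shAMB.

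Of 14 E2F, DP and pocket proteins, 10 rose (71.4%) and 0 fell in sh4, 3 rose and 3 fell in shAMB (21.4% each, both under the shares of all genes given above), and 4 fell in xenografts (28.6%). E2F7, a repressor of the S phase program like E2F8, changed by 1.01, SE 0.0549, edgeR adjusted p 1.04e-09, in sh4, −1.76, SE 0.0580, edgeR adjusted p 1.36e-12, in shAMB and −1.84, SE 0.118, edgeR adjusted p 4.26e-06, in xenografts, so its direction in sh4 was opposite to that in the other settings. LIN37, of the complex that represses cell cycle genes, and RBL2, a pocket protein, differed by −1.94, edgeR adjusted p 9.76e-05, and 1.004, edgeR adjusted p 1.29e-07, for sh4 minus shAMB. Of 20 genes of G2 and mitosis, 15 fell in sh4 (75%), 3 rose and 12 fell in shAMB (15% and 60%), and 8 fell in xenografts (40%). The differences between the lines were −1.13, edgeR adjusted p 0.000192, for CDC20, which activates the anaphase-promoting complex, −0.76, edgeR adjusted p 0.000462, for the mitotic kinase PLK1, and 0.55, edgeR adjusted p 1.19e-05, for the ubiquitin-conjugating enzyme UBE2C. Of 12 regulators of G1, 1 rose and 5 fell in sh4 (8.33% and 41.7%), and 5 rose and 2 fell both in shAMB and in xenografts (41.7% and 16.7%). CCND2, cyclin D2, had log2 fold changes of 0.64, edgeR adjusted p 0.601, in sh4, 4.17, edgeR adjusted p 0.000133, in shAMB and 2.54, edgeR adjusted p 0.00208, in xenografts. CDKN2B and CDKN2D, inhibitors of the cyclin D kinases, differed by −1.94, edgeR adjusted p 0.0105, and −1.59, edgeR adjusted p 0.000118, for sh4 minus shAMB. In EV 0 genes of these lists passed the test.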

How the data were processed

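The authors deposited expected counts per gene, with a gene length column, as separate tables for 18 cell culture and 8 xenograft libraries; their processing notes name STAR, SAMtools, RSEM and hg38 without versions or roles. The annotation, strand setting and treatment of mouse reads are not given in the sources used here. TPM tables were not used, and 0 columns of per-sample values were left aside; the Neg columns were taken as DMSO and the Pos columns as doxycycline. Deposited expected counts were rounded to whole numbers. In R 4.3.3, edgeR 4.0.16 filterByExpr and TMM scaling left 14905 genes in culture (factors 0.974 to 1.07) and 15960 in the xenografts (0.936 to 1.09). A quasi-likelihood model with a mean per group was fitted to the 18 culture libraries together and to the 8 xenografts alone, with 2-sided tests and p-values adjusted by Benjamini-Hochberg across every gene tested, called at 0.05; the SE was taken from the fitted coefficients. CPM uses TMM-scaled library sizes. Library trends with GC content and length (natural splines; GC known for 24589 genes, 92.8%) were removed as an alternative; others were RLE scaling, no filter, DESeq2 1.42.0, single-line fits, small and ribosomal RNA genes left out, a replicate block and leaving out each library. The procedure was tested on simulated counts that held no library trends with GC content or length, so that test says nothing about calls under such trends. Positions and exon overlaps are from GENCODE v44 (GRCh38) and promoter windows from RefSeq.

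The 48 members and the other gene lists were chosen with earlier results of these data known. Values in every library are given for 26 members: 12 fixed by name, the largest and smallest absolute shAMB change in each role, the 3 largest absolute differences of sh4 minus shAMB and the 3 largest absolute xenograft changes. MCM4, CDC7 and GINS4 were added after their values were seen.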

Additional observations from a re-analysis of the deposited data

Results flagged for a closer look

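Each value here is listed because a library stood far from the others of its group or because the response to doxycycline differed between lines. Among the 52 sets of 4 xenograft libraries (26 members in each group), 2 held a library whose gap to its neighbour as a share of the whole range was over Dixon's 95% critical value, and chance alone gives about 1 in 20. POLD3 measured 62.8 CPM in the fourth KO library, above 56.4 to 57.3 CPM in the other 3, and E2F2 measured 37.2 CPM in the same library, below 45.5 to 46.0 CPM. Groups of 3 were not examined in this way.

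The other values are interaction terms on the log2 scale that passed an adjusted p of 0.05 by edgeR over all genes, for the members described by library. The response of sh4 exceeded that of EV by 0.66 for POLD3 and 0.32 for RFC4, and was lower for CDC45 (−0.26), UHRF1 (−0.38) and E2F2 (−0.71). For shAMB minus EV every such difference was negative: RRM2 (−0.80), POLE2 (−0.78), RPA1 (−0.63), GMNN (−0.56), CHAF1A (−0.54), PCNA (−0.47), UHRF1 (−0.47), DBF4 (−0.46), POLD3 (−0.46), CDC45 (−0.26), TYMS (−0.22) and CHAF1B (−0.19).

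For sh4 minus shAMB the difference was positive for POLD3 (1.12), RRM2 (0.98), POLE2 (0.87), RPA1 (0.69), DBF4 (0.68), RFC4 (0.51), GMNN (0.50), CHAF1A (0.49), PCNA (0.48), TYMS (0.29), SLBP (0.27) and CHAF1B (0.15). It was negative for MCM5 (−1.53), POLD1 (−1.38), CDT1 (−0.89) and LIG1 (−0.64), 4 members of high GC content and wide spread between libraries. High GC content was not particular to them: CHAF1A, on the positive side, had 57.7%, above MCM5 at 57% and LIG1 at 56.6%. The part of base composition in the 4 negative differences and in that of CHAF1A was not tested.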

How the results depend on the processing

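For the 26 members given by library, 2858 of 3198 values under the alternatives kept their sign and their side of the threshold, 99 no longer passed and 92 passed anew. Another 131 changed sign but passed in neither fit, 33 of them with removal of the GC and length trends. A further 18 changed sign and passed in at least 1 fit, and all 18 came with that removal: MCM2 0.074 and E2F1 0.26 in sh4; CDT1 −0.29, MCM2 −0.35, MCM10 0.066, POLE −0.39 and E2F1 −0.67 in shAMB; CHAF1A 0.29 and E2F1 0.28 for sh4 minus EV; CDT1 −0.45 for shAMB minus EV; CDT1 0.24, MCM2 0.42, MCM10 −0.20, TK1 0.62, E2F1 0.93 and E2F2 0.26 for sh4 minus shAMB; and CHAF1A −0.23 and E2F2 −0.16 for sh4 minus EV with DMSO. Among the other 22 members it turned the sign, with a pass in at least 1 fit, of MCM7 (−0.26) and PRIM1 (0.01) in shAMB and of MCM7 (0.08), GINS1 (−0.27) and POLA1 (−0.22) for sh4 minus shAMB. The same removal gave 31 members called in sh4 in place of 17, 26 in place of 16 for sh4 minus EV, and 7 and 1 in place of 0 for the lines against EV with DMSO. Of all genes it called 29.9% higher and 25.7% lower in sh4, in place of 22.9% and 18%. For sh4 minus EV it called 23.8% and 21.2%, in place of 17.8% and 14.7%. With the sh4 libraries alone 8 were called in sh4, whereas with the shAMB libraries alone 7 members passed anew in shAMB. Over all genes the fit on the sh4 libraries alone called 2181 higher and 1546 lower, in place of 3410 and 2681. That on the shAMB libraries alone called 5286 and 5054, in place of 5602 and 4238. DESeq2 called 1 in shAMB against EV with DMSO. The cause of these changes was not tested.

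The median of the members in shAMB was −0.28, and it was −0.36 with RLE scaling, DESeq2 or the shAMB libraries alone and −0.33 without the filter. For shAMB minus EV it was −0.29, and −0.34 with RLE, without the filter or with DESeq2 and −0.25 with the trends removed. For sh4 minus shAMB it was 0.18, and 0.25 with RLE or DESeq2 and 0.23 with the trends removed, and for sh4 minus EV −0.07, or −0.014 with the trends removed. Over all genes the shAMB median was 0.10 with TMM and 0.02 with RLE scaling, and calls for shAMB minus EV were 3539 higher and 3237 lower with TMM but 3102 and 3525 with RLE.

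Leaving out each library in turn gave 13 to 25 members called in sh4, 30 to 36 in shAMB, 35 to 42 in the xenografts, 10 to 26 for sh4 minus EV, 28 to 29 for shAMB minus EV, 26 to 37 for sh4 minus shAMB and 0 in EV and between lines with DMSO. Calls over all genes moved as well, with 2599 to 3968 higher and 2127 to 4082 lower in sh4. They were 4897 to 5402 and 3796 to 4196 in shAMB, and 2558 to 3548 and 2403 to 3530 in the xenografts. For sh4 minus EV they were 1970 to 3565 and 1658 to 3992, for shAMB minus EV 3082 to 3513 and 2948 to 3241, and for sh4 minus shAMB 3851 to 4782 and 4157 to 5282. The medians ran from −0.32 to −0.23 in shAMB, −0.62 to −0.55 in the xenografts, −0.07 to −0.03 in sh4, −0.11 to −0.056 for sh4 minus EV, −0.32 to −0.28 for shAMB minus EV and 0.17 to 0.26 for sh4 minus shAMB. The count of 26 and the median of 0.26 came without the third sh4 doxycycline library, and the median of −0.11 without the first sh4 DMSO library.

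Replicate numbers did not pair the libraries: deviations of same-numbered libraries correlated at −0.603 to 0.374, and not every pair was over 0.1. With the replicate block 36 members were called in the xenografts, 35 in shAMB and 16 in sh4. Over all genes that fit called 2557 higher and 2372 lower in the xenografts, 5541 and 4215 in shAMB and 3308 and 2666 in sh4. In the xenografts CDT1, PRIM1, RFC4 and TYMS were lost. Members had at least 250 counts in every library. What limited the calls was not tested, and a p that missed the threshold does not show equal levels.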
